A study of Mus musculus with 7 samples.

Results

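The 10 genes described here mark endothelium, the cells that line blood vessels, and include genes of the liver sinusoids, the wide leaky capillaries beside which fetal blood cells form. They were taken by symbol from the count table: Cdh5, Pecam1, Kdr, Stab2, Lyve1, Tie1, Tek, Egfl7, Emcn and Sox18. All 10 were found among its 35976 symbols, and all 10 were among the 14679 genes that had enough reads to be tested. PolyA RNA of the E14.5 mouse fetal liver was sequenced from its lineage-negative fraction, the cells left after magnetic depletion of mature blood lineages. The 4 knockout libraries came from CD45.2(+) Vav1-iCre Brd9fl/fl embryos and the 3 control libraries from CD45.2(+) Brd9fl/fl embryos, all on C57BL/6. Both groups thus carried loxP-flanked Brd9, a bromodomain subunit of a BAF chromatin remodelling complex, and differed by Vav1-iCre, a recombinase driven by the Vav1 promoter in blood cells and in part of the endothelium. Whether a library is 1 embryo or a pool is not stated, and the p-values therefore reflect the spread between libraries, part of which may be technical.

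Endothelial cells are held together by VE-cadherin, the product of Cdh5, and by PECAM-1 at their junctions. Their growth and quiescence depend on the VEGF receptor encoded by Kdr and on the angiopoietin receptor system of Tek and Tie1. Sinusoidal cells also carry the hyaluronan receptors Stab2 and Lyve1, which clear matrix and waste from the blood. Several of these genes are not confined to vessels: Pecam1 is also made by platelets and myeloid cells, Lyve1 by some macrophages, and Tek, Egfl7, Emcn and, in early fetal liver, Cdh5 have been found on blood stem cells.

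Library totals ran from 18748885 to 23571878 counts. Brd9 had 8.57, 11.9, 13.2 and 12.2 CPM (counts per 1e6 of the TMM-scaled library total) in the knockouts, against 30.6, 32.2 and 36.5 CPM in the controls. Every library lay on the side of its label (log2 fold change -1.53, SE 0.15; adjusted p = 0.0037 by edgeR's quasi-likelihood test). In bulk RNA, fewer cells of a type and less RNA per cell cannot be told apart. Hepatocyte transcripts were abundant in this fraction, with a summed level of 12 hepatocyte genes of 13630 to 24405 CPM in the knockouts, against 10783 to 18872 CPM in the controls. The 10 endothelial genes summed to 173 to 218 CPM in the knockouts and 174 to 284 CPM in the controls.

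Sequence shows 2 features of these loci. Egfl7 hosts a microRNA gene known from endothelium, Mir126a, which lies inside the gene on the same strand at chr2:26591357-26591429 (GRCm38.p6). PolyA libraries of this kind do not measure the mature microRNA, so its sequence (RefSeq) is shown for identity only, with the seed in capitals.
mmu-miR-126a-3p: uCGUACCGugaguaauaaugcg

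The receptor pair Tie1 and Tek is shown by the 250 bases before the RefSeq gene start, because they are partners in a single receptor system. Capitals mark matches to CGGAAG or AGGAAG on either strand, letters that hold the core recognised by ETS factors, a family that acts on many endothelial genes. Tie1 lies on the minus strand (chr4:118489850-118490099) and Tek on the plus strand (chr4:94739039-94739288). In GENCODE M21 Tie1 begins at 118490061, so most of its window lies within that gene model. Tek begins there at 94739289, directly after its window.
Tie1: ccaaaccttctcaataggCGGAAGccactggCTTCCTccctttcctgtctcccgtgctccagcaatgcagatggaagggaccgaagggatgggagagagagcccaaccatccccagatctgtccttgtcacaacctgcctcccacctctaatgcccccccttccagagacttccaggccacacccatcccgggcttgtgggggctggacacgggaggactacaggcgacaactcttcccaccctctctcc
Tek: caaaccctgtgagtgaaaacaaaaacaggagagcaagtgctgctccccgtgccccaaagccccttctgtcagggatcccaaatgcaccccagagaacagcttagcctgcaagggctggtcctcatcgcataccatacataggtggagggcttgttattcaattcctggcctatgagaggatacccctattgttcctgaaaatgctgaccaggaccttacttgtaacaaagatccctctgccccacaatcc

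RefSeq windows were matched for 6 of the 10 genes (Egfl7, Emcn, Kdr, Stab2, Tek and Tie1), with 8 windows in all since Egfl7 has 3. CGGAAG was in 1 of these 8 windows, that of Tie1, and in 13.6% of all 32851 windows. AGGAAG was in 5 of the 8, those of Tie1, Emcn, Stab2 and 2 of Egfl7, and in 29.5% of all windows. The 2 motifs differ in their first base and cannot overlap on the same strand from the same start. A match describes the letters only and is no binding site.

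None of the 10 genes passed the test across all genes. In edgeR, 0 of 10 were called, against 0.559% of all tested genes (82 of 14679; 0.545% as lower and 0.0136% as higher). At an unadjusted p under 0.05 there was 1, Cdh5, against 10.9% of all genes, and DESeq2 also called Cdh5 alone, where it called 2.28% of genes. In the authors' deposited table, made with DESeq2, Cdh5 was the member listed under 0.05 (log2 fold change -0.82, adjusted p = 9.8e-04), and 2.19% of its genes were. Its log2 fold change and unadjusted p for Cdh5 equal those of DESeq2 here, so that table is no separate support. The 10 had a median log2 fold change of -0.22, against 0.01 over all genes tested, and 9 of 10 were lower in the knockouts. Without control replicate 2 the median was 0.086, and 3 of 10 were lower (Cdh5, Kdr and Sox18).

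Cdh5 encodes the adhesion molecule that seals endothelial junctions (chromosome 8, 104101625 to 104144511, plus strand, GRCm38). It had 8.79, 11.3, 8.24 and 13.2 CPM in the knockouts, against 18.2, 18.8 and 17.8 CPM in the controls. All 4 knockouts lay below all 3 controls, as they did for 6.81% of tested genes. These levels rest on 161 to 270 reads per knockout library and 388 to 455 per control library. The mean was 10.4 ± 2.3 CPM in the knockouts (SD, n = 4) and 18.3 ± 0.5 CPM in the controls (SD, n = 3), which is 56.7% of control. The log2 fold change was -0.82 (SE 0.17, 95% interval -1.20 to -0.43), with an unadjusted p of 8.8e-04 and an adjusted p = 0.083 (edgeR quasi-likelihood). An exact two-sided permutation test on log2 CPM gave p = 0.0571, where the smallest p this design allows is 0.0286. The direction was the same in each of the 15 alternative settings, with log2 fold changes from -0.96 to -0.72, and the call was made in 3 of them, among them DESeq2 (adjusted p = 9.5e-04) and the edgeR fit with no filter on low counts (adjusted p = 0.026). With the Xist level as a covariate the adjusted p was 0.228.

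**Figure D1:**
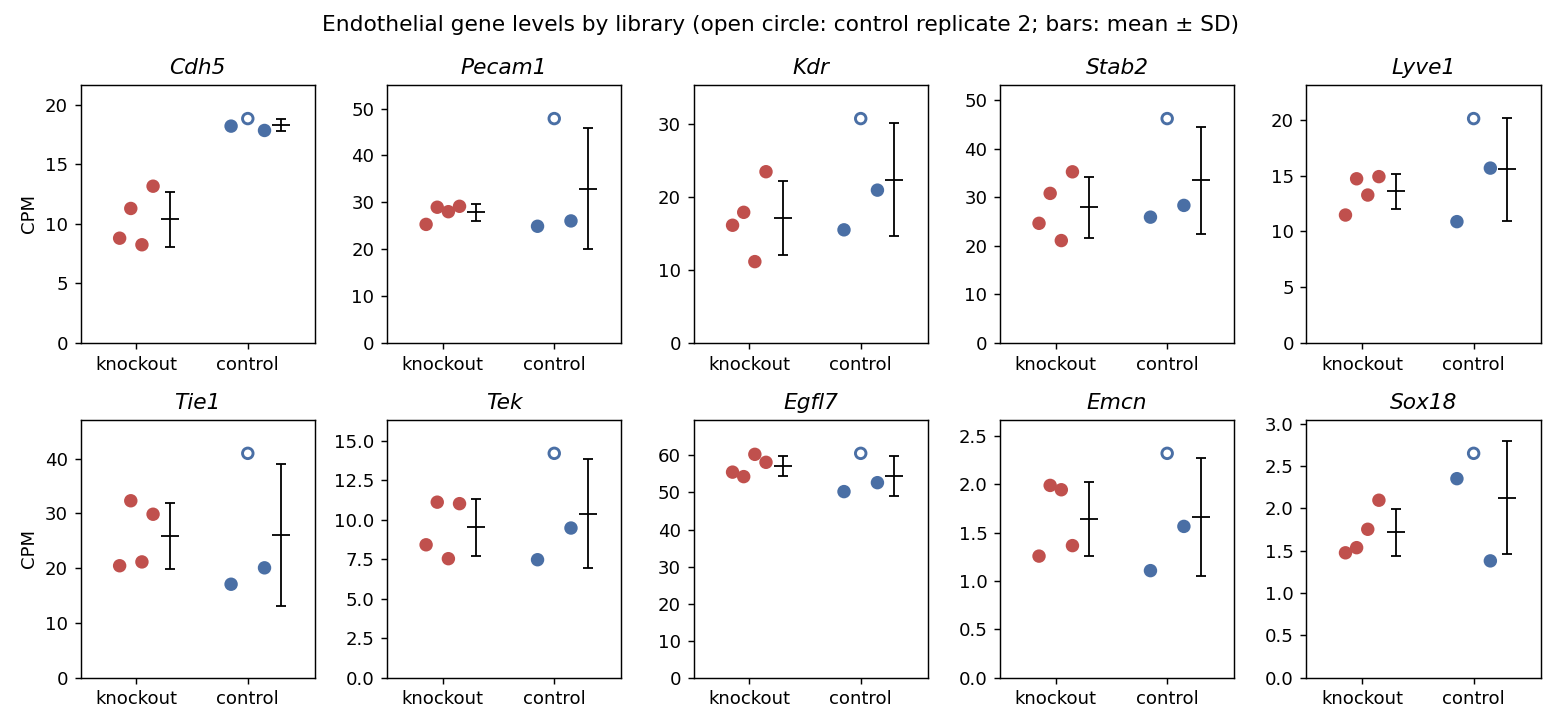
CPM of each of the 10 endothelial genes in 4 knockout libraries (red) and 3 control libraries (blue), with the mean and SD beside each group; the open circle is control replicate 2. Cdh5 is the gene whose groups do not overlap, and control replicate 2 is the highest library for all 10.

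Pecam1, the other junctional adhesion molecule of the set, did not follow Cdh5. It had 25.3, 28.9, 28.0 and 29.1 CPM in the knockouts, against 24.9, 47.9 and 26.0 CPM in the controls. The knockouts lay close together, near control replicates 1 and 3 and below control replicate 2. The log2 fold change was -0.24 (95% interval -0.72 to 0.23, edgeR adjusted p = 0.722). Of 8 genes fixed as cytoplasmic partners and neighbours of the cadherin junction, 0 passed (0 unadjusted, 0 by DESeq2). Ctnnb1, the beta-catenin that binds the cadherin tail, had 347 ± 26 CPM in the knockouts and 334 ± 11 CPM in the controls (SD, n = 4 and 3; edgeR adjusted p = 0.851), and Ctnna1, alpha-catenin, had 135 ± 2 and 128 ± 3 CPM (adjusted p = 0.704). Catenins are made by nearly all cells, so these levels are not those of endothelium alone. For Ctnna1 all knockouts lay above all controls. Of all tested genes 11.2% had groups without overlap in either direction, 6.81% of them all with the knockouts below the controls.

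The growth factor receptors were spread widely within each group. Kdr, the main receptor for VEGF-A, had 16.1, 17.9, 11.1 and 23.4 CPM in the knockouts, against 15.5, 30.7 and 20.9 CPM in the controls. Knockout replicate 3 was the lowest library and the groups overlapped (log2 fold change -0.39, 95% interval -0.999 to 0.23, edgeR adjusted p = 0.662). Tek, the receptor that binds angiopoietins, had 8.41, 11.1, 7.53 and 11.015 CPM in the knockouts, against 7.47, 14.2 and 9.47 CPM in the controls (log2 fold change -0.13, 95% interval -0.66 to 0.41, adjusted p = 0.877). Tie1, its partner receptor with no well-defined ligand of its own, had 20.4, 32.3, 21.1 and 29.8 CPM in the knockouts, against 17.1, 40.9 and 20.0 CPM in the controls. Every knockout of Tie1 lay above control replicates 1 and 3 and below control replicate 2, and the log2 fold change was -0.01 (95% interval -0.67 to 0.66, adjusted p = 0.996). Without control replicate 2 it was 0.48 (adjusted p = 0.623).

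For the ligands of these receptors, 6 of 9 listed genes had enough reads, and 0 passed (0 unadjusted, 0 by DESeq2). Vegfa, which signals through Kdr, had 63.1, 54.4, 47.7 and 68.5 CPM in the knockouts, against 63.0, 70.6 and 66.8 CPM in the controls (edgeR adjusted p = 0.621). Vegfc, a ligand of lymphatic and sinusoidal VEGF receptors, was at 1.29 ± 0.40 CPM in the knockouts and 0.746 ± 0.171 CPM in the controls (adjusted p = 0.465), and Angpt2, a Tek ligand made by endothelium itself, at 0.627 ± 0.383 and 0.755 ± 0.069 CPM (adjusted p = 0.869). The groups overlapped for all 6.

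Neither hyaluronan receptor of the sinusoid passed the test. Stab2 had 24.6, 30.8, 21.1 and 35.2 CPM in the knockouts, against 25.9, 46.2 and 28.3 CPM in the controls. The knockouts reached from below to above control replicates 1 and 3 (log2 fold change -0.26, 95% interval -0.78 to 0.25, edgeR adjusted p = 0.723). Lyve1 had 11.5, 14.7, 13.3 and 14.9 CPM in the knockouts, against 10.9, 20.1 and 15.7 CPM in the controls, so that all 4 knockouts lay within the range of the controls (log2 fold change -0.20, 95% interval -0.65 to 0.26, adjusted p = 0.762).

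Egfl7, a secreted factor of endothelial matrix, was the most even of the 10 apart from Cdh5 in the controls. It had 55.5, 54.3, 60.3 and 58.1 CPM in the knockouts, against 50.2, 60.6 and 52.6 CPM in the controls, and it alone was higher in the knockouts, by 0.07 on the log2 scale (95% interval -0.13 to 0.26, edgeR adjusted p = 0.822). That interval is the narrowest of the 10. Egfl7 shares 7.37% of its exon bases with the readthrough gene model Gm20532 and 1.79% with Agpat2 on the other strand, and the strand setting of the counting is not given in the sources used here.

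Emcn, the sialomucin endomucin of venous and capillary endothelium, and Sox18, a transcription factor of vessel and lymphatic development, had the fewest reads. Emcn had 1.26, 1.99, 1.94 and 1.36 CPM in the knockouts, against 1.11, 2.32 and 1.56 CPM in the controls (log2 fold change -0.02, 95% interval -0.75 to 0.70, edgeR adjusted p = 0.987). Sox18 had 1.48, 1.54, 1.75 and 2.10 CPM in the knockouts, against 2.35, 2.65 and 1.38 CPM in the controls (log2 fold change -0.31, 95% interval -0.96 to 0.33, adjusted p = 0.736). Emcn had 23 to 44 reads and Sox18 27 to 43 in the knockouts, against 24 to 56 and 30 to 64 in the controls. Halvings or doublings lie outside these intervals, but smaller differences were not resolved. Tie1, with 370 to 989 reads per library, had a similarly wide interval (-0.67 to 0.66). The parts of read depth and of spread between libraries in these widths were not tested.

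**Figure D2:**
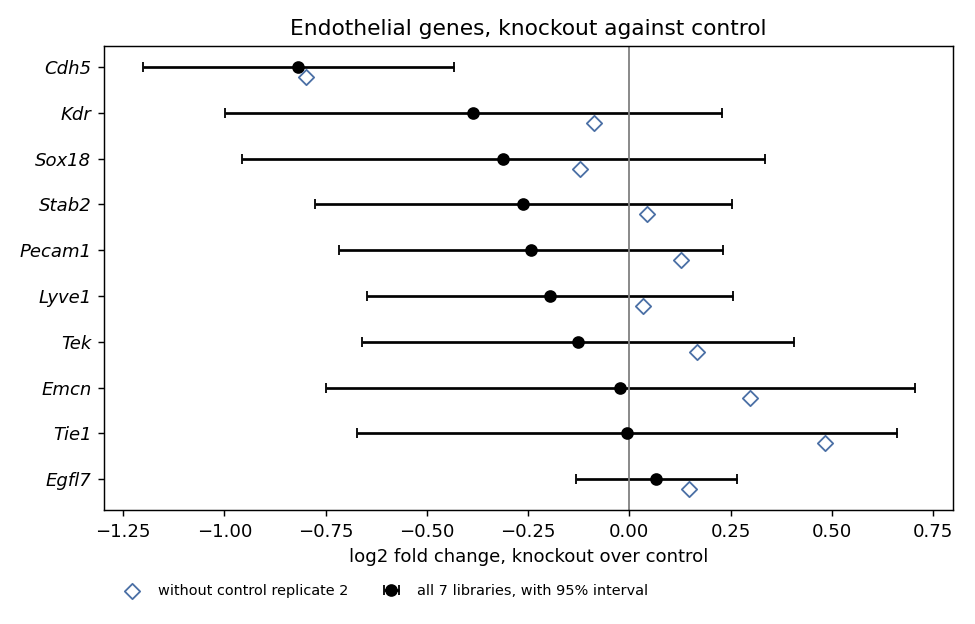
Log2 fold change of each gene, knockout over control, from edgeR with its 95% interval (black) and the same without control replicate 2 (open diamonds, 4 knockout and 2 control libraries). The interval of Cdh5 lies below 0 and those of the other 9 include it; without control replicate 2 the estimate of Cdh5 is -0.80 and 7 of the 10 estimates are above 0.

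Levels of different genes were compared per kilobase of annotated exon (CPM per kb, exon union of GENCODE M21). Egfl7 stood highest, at 15.9 ± 0.8 CPM per kb in the knockouts and 15.2 ± 1.5 in the controls (SD, n = 4 and 3). In the controls, Lyve1 (5.33), Tie1 (5.29), Pecam1 (5.29), Cdh5 (4.35) and Stab2 (3.82 CPM per kb) followed, and these 5 neighbours did not differ beyond their spread. Kdr (2.48), Tek (2.20) and Sox18 (1.31 CPM per kb) came next, and Emcn was lowest at 0.307 CPM per kb. In the knockouts the order was Egfl7, Tie1 (5.27), Lyve1 (4.66), Pecam1 (4.47), Stab2 (3.19), Cdh5 (2.47), Tek (2.02), Kdr (1.90), Sox18 (1.06) and Emcn (0.303 CPM per kb). Cdh5 thus stood between Pecam1 and Stab2 in the controls and between Stab2 and Tek in the knockouts, at 2.47 ± 0.54 CPM per kb in the knockouts and 4.35 ± 0.12 CPM per kb in the controls.

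Control replicate 2 stood apart for these genes. It was the highest of the 7 libraries for all 10, whereas it was the highest for 22.7% of all tested genes. Its level was 1.88 times the mean of the other controls for Pecam1, 1.69 times for Kdr, 1.70 times for Stab2, 1.52 times for Lyve1, 2.21 times for Tie1, 1.68 times for Tek, 1.74 times for Emcn, 1.42 times for Sox18 and 1.18 times for Egfl7. For Cdh5 the ratio was 1.05, close to the median of 1.002 over all tested genes. The coefficient of variation over the controls was 2.76% for Cdh5, against 9.92% for Egfl7 and 29.7% to 50.04% for the other 8, with a median of 9.36% over genes of at least 1 CPM. In the knockouts Cdh5 varied like the others, with 22.02%, against 4.73% to 29.6%. Control replicate 2 was also the control with almost no Xist, 9 reads against 16410 and 17452, and Xist had 2, 16392, 4 and 6 reads in the knockouts, Xist being made from the inactive X chromosome of females. The part of sex in the height of this library was not tested.

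**Figure D3:**
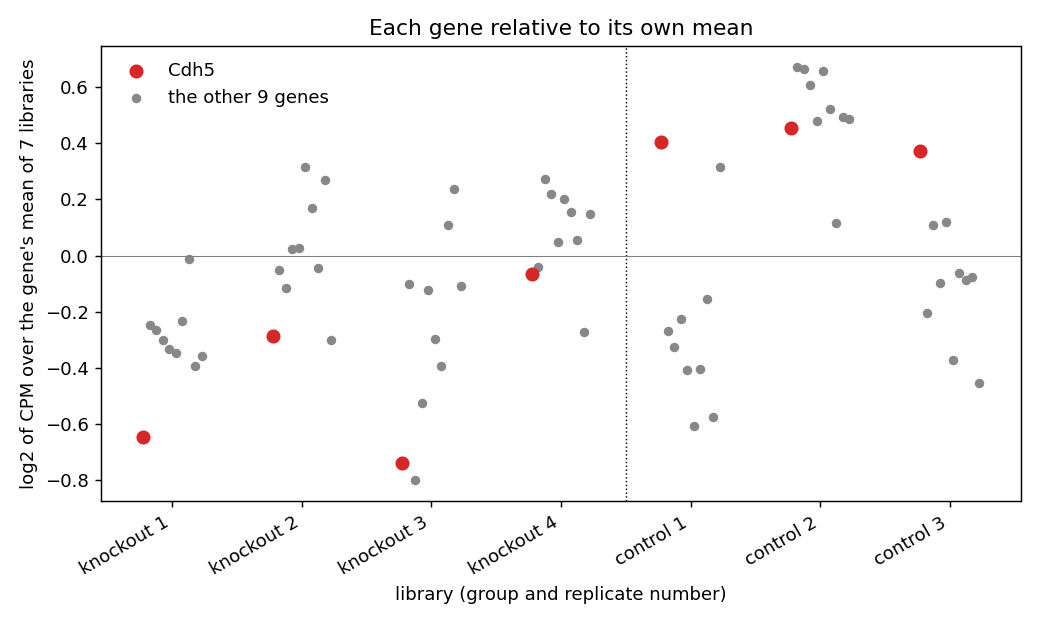
Log2 of each gene's CPM over its own mean of 7 libraries, with Cdh5 in red and the other 9 genes in grey (1 point per gene and library, knockouts left of the dotted line and controls right of it). Cdh5 sits between 0.37 and 0.46 in all 3 controls, while the others are high in control replicate 2 and lower in the other controls.

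Cdh5 was also set against other endothelial transcripts, as a description with no test, since this ratio was chosen after the levels of the 10 genes had been seen. Relative to the summed CPM of 25 further pan-endothelial genes, Cdh5 stood at 3.23%, 2.77%, 3.10% and 3.40% in the knockouts, against 5.39%, 3.46% and 5.12% in the controls. The groups did not overlap, but control replicate 2 lay close to the highest knockout. The share averaged 3.13 ± 0.27% in the knockouts and 4.66 ± 1.05% in the controls (SD, n = 4 and 3), and the difference in mean log2 share was -0.55. Without control replicate 2 the difference was -0.75. The most abundant of the 25 genes was Vwf, which is also in the megakaryocyte list. It had 48.9 to 176 CPM in the knockouts and 112 to 195 CPM in the controls. Without Vwf the list summed to 187 to 246 CPM in the knockouts and 215 to 351 CPM in the controls. The share of Cdh5 without Vwf was not tested. Taken gene by gene, the ratio of Cdh5 to the other member was lower in every knockout than in every control for 5 of 9 genes (Stab2, Lyve1, Tie1, Tek and Egfl7), against 76.2% of all tested genes, so a share of that kind is not particular to endothelial genes.

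Other endothelial genes were taken in 3 lists. Of 53 tested genes in the lists of pan-endothelial, sinusoid and lymphatic, and arterial and venous genes, 0 passed in edgeR and 1 was lower by DESeq2. At an unadjusted p under 0.05, 9 of the 53 (17.0%) were lower, against 6.9% of all tested genes, and 1 (1.89%) was higher, against 3.95%. The median log2 fold change was -0.17, and 35 were lower and 18 higher. The median was -0.11 over 24 pan-endothelial genes (16 lower, 8 higher), -0.28 over 16 sinusoid and lymphatic genes (14 lower, 2 higher) and 0.02 over 13 arterial and venous genes (5 lower, 8 higher). The sinusoid and lymphatic genes summed to 331, 461, 412 and 465.7 CPM in the knockouts, against 479, 528 and 524 CPM in the controls, and the groups did not overlap. Without Aqp1, a water channel also made by red cells and the most abundant gene of that list (left out after its values were seen), the sums overlapped, at 175 to 285 CPM in the knockouts and 221 to 329 CPM in the controls. Without control replicate 2 the median was 0.14 over all tested genes of these lists. It was then 0.13 over the pan-endothelial genes and 0.30 over the arterial and venous genes, but still -0.15 over the sinusoid and lymphatic genes.

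All knockouts lay below all controls for 4 of the 53 tested genes of these lists, against 6.81% of all tested genes. Among the pan-endothelial genes this held for Plvap alone, which forms the diaphragms of fenestrated capillaries. It had 12.5, 15.4, 16.8 and 14.6 CPM in the knockouts, against 17.97, 19.9 and 18.8 CPM in the controls (log2 fold change -0.35, SE 0.13, edgeR adjusted p = 0.361). Cd93, a C-type lectin-like receptor of endothelium that early blood progenitors also carry, had 22.9, 37.4, 27.0 and 40.5 CPM in the knockouts, against 39.9, 73.8 and 42.9 CPM in the controls (adjusted p = 0.334). Myct1 had 4.26 ± 1.29 and 7.04 ± 2.55 CPM, and Eng, the TGF-beta co-receptor endoglin, 37.7 ± 4.7 and 45.7 ± 5.1 CPM in knockouts and controls (adjusted p = 0.419 and 0.455).

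In the sinusoid list, Mrc1, a mannose receptor shared by sinusoidal endothelium and macrophages, had 11.3, 12.6, 11.6 and 15.5 CPM in the knockouts, against 17.3, 21.2 and 23.1 CPM in the controls. No knockout reached a control (log2 fold change -0.69, SE 0.15, edgeR adjusted p = 0.102; DESeq2 adjusted p = 0.0040). Maf, a transcription factor that sinusoids and macrophages share, had 5.62 ± 1.47 CPM in the knockouts and 8.52 ± 1.03 CPM in the controls (edgeR adjusted p = 0.364). Its groups did not overlap. Clec4g, a lectin of sinusoidal endothelium, had 0.993 ± 0.576 and 2.13 ± 0.67 CPM (adjusted p = 0.416), and F8, the coagulation factor made by these cells, 2.32 ± 0.39 and 3.62 ± 1.30 CPM (adjusted p = 0.452). Of the arterial and venous genes, the Notch ligand gene Jag2 had 7.96 ± 1.17 CPM in the knockouts and 5.43 ± 1.47 CPM in the controls (adjusted p = 0.390). Acvrl1, a BMP9 receptor, had 1.20 ± 0.13 and 1.79 ± 0.11 CPM with no overlap (adjusted p = 0.436).

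Genes of other cell types were read in the same libraries. The 16 macrophage genes summed to 98.8, 133, 172 and 185 CPM in the knockouts, against 341, 248 and 293 CPM in the controls. Of 15 tested, 14 were lower, and 1, Siglec1, fell in edgeR (log2 fold change -3.86, adjusted p = 0.0081). At an unadjusted p under 0.05, 10 of the 15 (66.7%) were lower, against 6.9% of all tested genes. By DESeq2, which called 2.28% of genes, 7 fell. All knockouts lay below all controls for 8 of the 15, against 6.81% of all tested genes. The 10 granulocyte genes summed to 1230 to 2610 CPM in the knockouts and 4026 to 7149 CPM in the controls. In edgeR 7 of these 10 fell, where 0.545% of all tested genes fell. Control replicate 2 was the highest library of the granulocyte list and of the megakaryocyte list, whose sum was 660 to 1625 CPM in the knockouts and 970 to 1809 CPM in the controls. It was the lowest library of the hepatocyte list, at 10783 CPM, and of the stromal list, at 87.1 CPM. All 12 hepatocyte genes were higher in the knockouts (median log2 fold change 0.27) and so were 10 of 11 tested stromal genes (median 0.49), and 0 of either list passed in edgeR, at an adjusted or an unadjusted p under 0.05, or in DESeq2. No macrophage, megakaryocyte or granulocyte gene of these lists was at 0 in all libraries. The part of these cells in the level of Cdh5 or of the shared genes Pecam1, Lyve1 and Mrc1 was not tested.

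**Figure D4:**
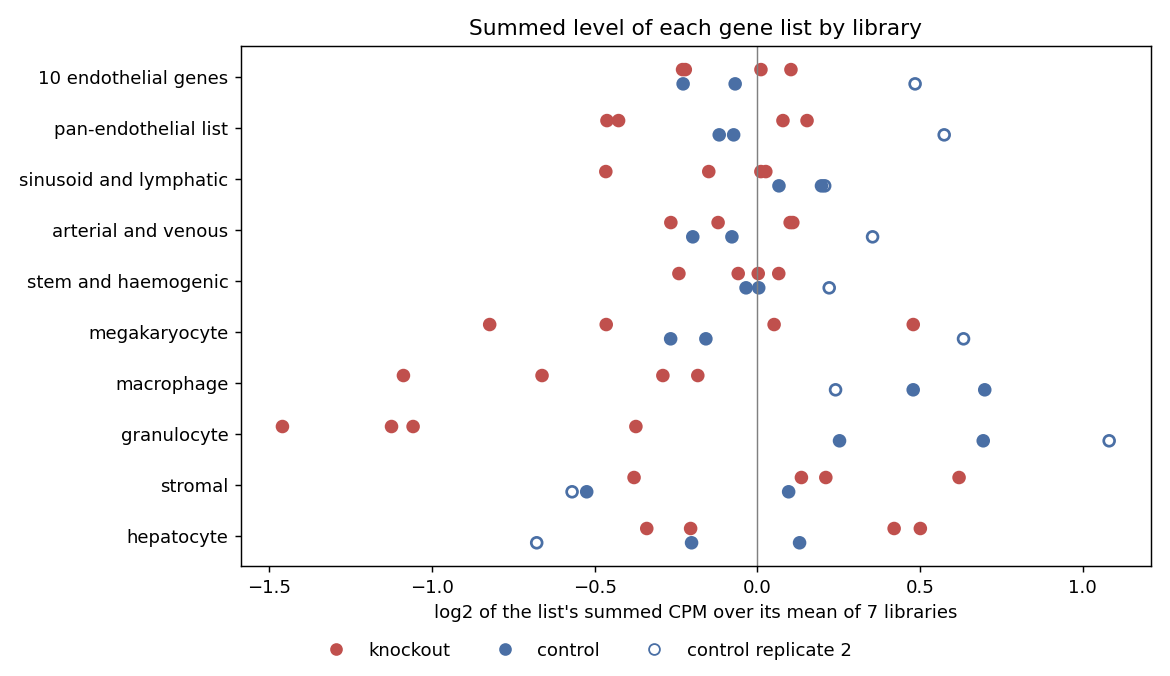
Summed CPM of each gene list in each library as log2 over the list's mean of 7 libraries, with knockouts in red, controls in blue and control replicate 2 as an open circle. Knockouts and controls overlap for the 10 endothelial genes and separate for macrophage and granulocyte genes and for the sinusoid and lymphatic genes. The sinusoid and lymphatic sums are 331 to 465.7 CPM in the knockouts and 479 to 528 CPM in the controls. Without Aqp1 (not drawn) those sums overlap, at 175 to 285 CPM in the knockouts and 221 to 329 CPM in the controls.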

How the data were processed

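The authors' deposited counts are raw read counts per gene symbol in 7 libraries. The submitters' processing notes name HISAT2 for alignment, mm10 and featureCounts; for versions, annotation and strand the sources used here give nothing. The authors' deposited DESeq2 table holds log2 fold changes, p-values, scores from the test, and a signal per library (the count over its size factor). Of the symbols counted, 14 septins had become dates and were read back.

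Genes were kept with filterByExpr, scaled by TMM and tested with edgeR 4.0.16 (quasi-likelihood F test, R 4.3.3, group as the only term), checked on simulated data. A call is a Benjamini-Hochberg adjusted p under 0.05. SE is the log2 fold change over the root of F, and the prior count in log2 CPM was 2. Alternatives were other scalings and filters, DESeq2 1.42.0, limma-voom (limma 3.58.1), a replicate block, Xist as a covariate and each library left out. The genes named are the 10, Brd9, the called and up to 4 lowest-p genes of each list, and the 5 genes most like Cdh5. Members and lists were chosen with earlier results of these data known. Libraries of the same group differed by more than sampling noise (chi-square per degree of freedom at least 8.5). Coordinates are 1-based, from GENCODE M21 (GRCm38, which mm10 names) unless RefSeq is given.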

Additional observations from a re-analysis of the deposited data

How the results depend on the processing

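The number of genes called over the whole table was 82, against 228 with no filter on low counts, 386 with DESeq2, 52 with the Xist level as a covariate, and 20 to 120 when a library was left out. It was 51, 21 and 37 without knockout replicate 1, 2 and 4, and 49 and 20 without control replicate 2 and 3. Of the 10 genes 0 were called, against 1 (Cdh5) with no filter, with DESeq2 and with the replicate block, and 0 to 0 with each library left out. Cdh5 had log2 fold changes of -0.82 with no filter (adjusted p = 0.026), -0.82 with DESeq2 (adjusted p = 9.5e-04) and -0.96 with the replicate block (adjusted p = 0.0498), and -0.95 to -0.72 with a library left out (adjusted p from 0.064 to 0.260). Of the other endothelial genes 0 were called, against 1 (Mrc1) with no filter and with DESeq2 and 1 (Cd93) with the replicate block. Same-numbered libraries showed correlations of deviations of 0.17, -0.02 and -0.01, and the other pairs ran from -0.19 to 0.13. With so few pairs these values cannot settle whether the numbers pair the libraries. The block gave 121 calls.

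Directions of uncalled genes turned with single libraries. Leaving out each library gave -0.40 to 0.13 for Pecam1, -0.41 to 0.043 for Stab2, -0.39 to 0.033 for Lyve1, -0.31 to 0.17 for Tek, -0.23 to 0.48 for Tie1 and -0.24 to 0.30 for Emcn, the upper value in each case without control replicate 2. Tie1 was 0.09 and 0.08 without knockout replicate 1 and 3, and Emcn 0.08 and 0.06 without knockout replicate 1 and 4. With limma-voom Tie1 was 0.066 and Emcn 0.014; with the replicate block Emcn was 0.079; with the Xist level Egfl7 was -0.0013. The cause was not tested. Emcn and Sox18 had the fewest reads of these genes, and Sox18 kept its direction whichever library was left out.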

Other observations

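Selp, P-selectin, an adhesion molecule of platelets and of endothelium, had 0.874, 0.948, 0.332 and 0.780 CPM in the knockouts, against 2.995, 4.35 and 1.79 CPM in the controls. All knockouts lay below all controls (log2 fold change -2.05, SE 0.40, edgeR adjusted p = 0.069; DESeq2 adjusted p = 5.6e-04). In the list of stem cell and haemogenic genes, some of which endothelium shares, 0 of 13 tested passed in edgeR (2 lower and 2 higher unadjusted, 1 lower by DESeq2). The unadjusted counts were 15.4% each way, against 6.9% of all tested genes lower and 3.95% higher. DESeq2 called 2.28% of all genes. Kit, the stem cell factor receptor, had 160, 204, 202 and 212 CPM in the knockouts, against 267, 313 and 301 CPM in the controls. No knockout reached a control, as for 6.81% of tested genes (edgeR adjusted p = 0.056, DESeq2 adjusted p = 2.6e-04). Mecom, a transcription factor of stem cells and of haemogenic endothelium, had 3.49 ± 0.76 CPM in the knockouts and 2.19 ± 0.81 CPM in the controls (SD, n = 4 and 3; adjusted p = 0.453).

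The 5 genes whose deviations from the group means were most like those of Cdh5 over the 7 libraries were Zfp579, Sema6d, Zfp629, Smg6 and Morc3. This is a description with no test (Pearson r 0.983 to 0.994 among 13073 genes of at least 1 CPM). Of the other members, Stab2 and Kdr came highest, both at r = 0.72 (ranks 1372 and 1379). Cdh5 varied by 2.76% over the controls and 22.02% over the knockouts (coefficient of variation), so the likeness rests mainly on the knockouts. Sema6d had 2.84, 4.24, 2.42 and 6.38 CPM in the knockouts, against 7.42, 8.24 and 7.49 CPM in the controls (edgeR adjusted p = 0.271).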
